A study of Mus musculus with 6 samples.

Results

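The genes described here make up the step that turns a hormone signal into cyclic AMP (cAMP) at the plasma membrane of brown adipocytes, from the beta-adrenergic receptors through the stimulatory G protein Gs to the adenylyl cyclases. They were chosen by gene symbol from 9 listed genes, and 8 of these (Adrb1, Mrap, Gnas, Adcy3, Adcy5, Adcy6, Adcy7 and Adcy9) were found among the 13283 genes of the deposited table. Adrb3, the receptor through which catecholamines mainly act in rodent brown fat, was not analysed here. RNA-seq covered 3 libraries of Scr cells and 3 of MICT1 KO cells, made from 1 immortalized mouse BAT cell line carrying Cas9. Scr cells, whose genotype the sample labels give as WT, were transduced with scrambled sgRNA. The KO cells were CRISPR pools made with sgRNAs against MICT1 (the gene of a microprotein enriched in brown adipocytes), so they are mixtures of edited cells, and the labels do not say which pool each library came from. Both groups were taken through the same adipogenic differentiation and were given 10 µM forskolin for 6 h at day 6, so no library shows the unstimulated level of any gene. MICT1 transcripts were not analysed here, so the labels could not be checked on the targeted gene.

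In this pathway, noradrenaline binds beta-adrenergic receptors, which load the alpha subunit of Gs (encoded by Gnas) with GTP. Gs alpha then activates membrane adenylyl cyclases, enzymes that make cAMP from ATP, and cAMP in brown adipocytes drives lipolysis and heat production through protein kinase A. Forskolin, a plant diterpene, bypasses the receptor and activates most membrane cyclases directly, although the product of Adcy9 is generally regarded as responding weakly or not at all. Adcy5 and Adcy6 encode closely related enzymes that calcium inhibits, Adcy7 encodes an enzyme whose response to Gs is raised by G beta-gamma, and Mrap encodes the melanocortin 2 receptor accessory protein, which carries the receptor for corticotropin to the cell surface.

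RefSeq (GRCm38.p6) gave 12 promoter windows for 6 of the 8 genes, each reaching from 250 bases before a transcription start to 50 after it. Adcy9 and Adcy7 are shown because they were the cyclase genes that changed at least 2-fold, in opposite directions, and Gnas because it encodes Gs alpha. The 250 bases before the start are printed from 5′ to 3′ on the strand of the gene. Capitals mark TGACG, the shorter form of the cAMP response element (CRE), or its reverse complement. The windows lie at chr16:4420499-4420748 (minus strand) for Adcy9 and at chr2:174329756-174330005 (plus strand) for the start of the Gs alpha transcript of Gnas. That of Adcy7 lies at chr8:88282742-88282991 (plus strand), for the most upstream of the 3 Adcy7 start sites that have a window. All 3 windows lie inside the span of their gene as given below, which begins farther upstream.
Adcy9: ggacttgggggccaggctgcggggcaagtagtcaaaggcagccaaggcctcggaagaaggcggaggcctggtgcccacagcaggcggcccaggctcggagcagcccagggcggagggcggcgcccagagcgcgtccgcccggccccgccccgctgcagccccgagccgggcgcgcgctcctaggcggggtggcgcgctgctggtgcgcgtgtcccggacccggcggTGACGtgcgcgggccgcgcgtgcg
Adcy7: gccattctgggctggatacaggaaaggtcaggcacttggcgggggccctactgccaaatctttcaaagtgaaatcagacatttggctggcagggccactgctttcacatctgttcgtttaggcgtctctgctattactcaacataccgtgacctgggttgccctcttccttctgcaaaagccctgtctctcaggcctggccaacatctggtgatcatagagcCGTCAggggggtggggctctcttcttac
Gnas: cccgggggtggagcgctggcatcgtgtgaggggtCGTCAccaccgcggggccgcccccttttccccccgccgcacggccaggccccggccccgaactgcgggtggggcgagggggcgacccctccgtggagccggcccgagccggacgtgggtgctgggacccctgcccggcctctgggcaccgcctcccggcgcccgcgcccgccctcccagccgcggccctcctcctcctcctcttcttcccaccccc
The match began 24 bases before the start in Adcy9, 28 bases before it in Adcy7 and 216 bases before it in Gnas. TGACG on either strand was present in 6 of the 12 windows, against 20.8% of all 32851 RefSeq windows. At least 1 window of 4 genes (Adrb1, Gnas, Adcy7 and Adcy9) held it, and the share per gene over all genes was not computed. A pair of overlapping Gnas windows held the same site, so the 6 windows held 5 separate sites. The full CRE TGACGTCA, which 1.79% of all windows hold, was in none of the 12. The C/EBP motif TTGCNNAA, present in 10.8% of all windows, was found in the printed window of Adcy7. The GC box GGGCGG began 4 times in the 250 bases before the start of Adcy9, 4 times in those of Adcy5 and 2 times in those printed for Gnas, and 35.7% of all windows held it. By base composition the windows of Adcy9 and of the Gs alpha transcript were 78.3% and 81.7% G or C, whereas that of Adcy7 was 54.7%. The printed windows of Gnas and Adcy7, which rose, and of Adcy9, which fell, all held TGACG. The windows of the other Adcy7 start sites and another Gnas window held none.

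Of the 8 genes, 7 were tested, having a signal of 10 or more in at least 3 libraries, while Adcy5 was too low. The signal is the deposited estimate of reads per gene after scaling of the libraries to each other. In MICT1 KO cells Mrap, Adcy6 and Adcy9 fell and Gnas and Adcy7 rose, so 5 of 7 genes had an adjusted p under 0.05 by limma-trend. That is 71.4%, where 56.9% of all 12507 genes tested were called, 28.3% as lower and 28.5% as higher. Adrb1 and Adcy3 were not called. With the further demand of a change of at least 2-fold, 3 genes (Mrap, Adcy7 and Adcy9) and 13.7% of all genes remained. The same 3 genes reached 1.8-fold with an unadjusted p under 0.05, the size of change that the methods of the study ask for, as did 17.5% of all genes. The values of the KO and Scr libraries did not overlap for 6 of the 7 genes, against 62% of all genes tested. In 4 of them KO was below Scr (31.2% of all genes) and in 2 it was above (30.9%).

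**Figure D1:**
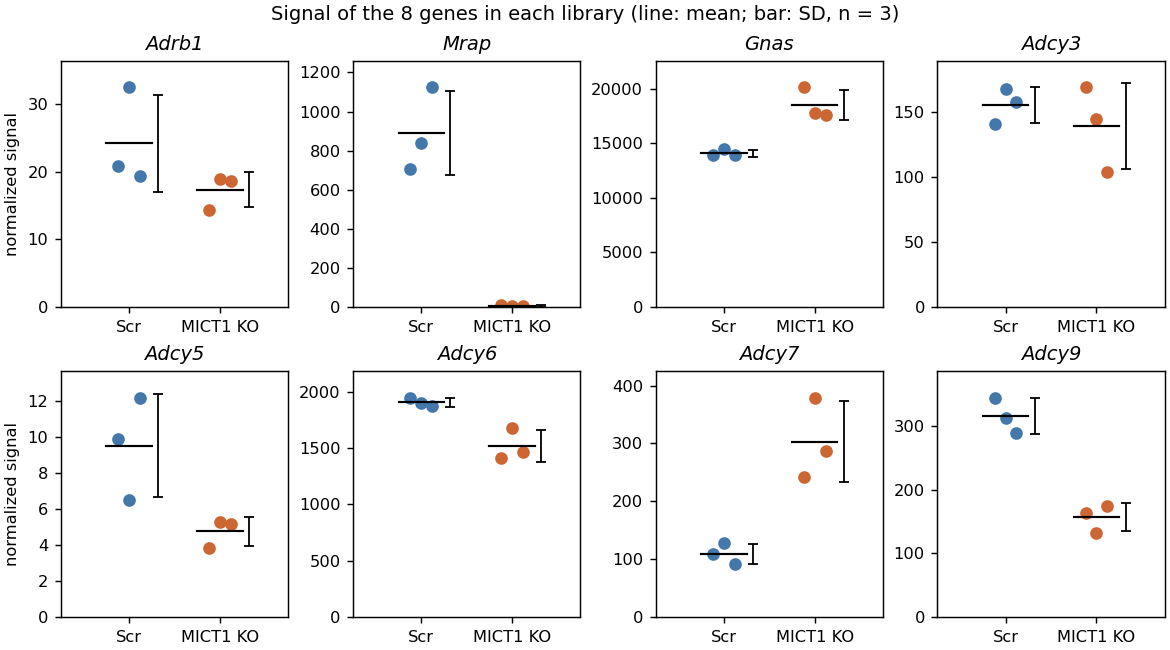
Normalized signal of the 8 genes (vertical axes, each starting at 0) in the 3 Scr and 3 MICT1 KO libraries, with a point for each library, a line at the group mean and a bar of 1 SD (n = 3) beside it. The 3 KO libraries lie below all Scr libraries for Mrap, Adcy6, Adcy9, Adrb1 and Adcy5 and above them for Gnas and Adcy7, and the groups overlap for Adcy3.

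The libraries were of similar depth, with an estimated 15445703 to 17925418 reads in the genes listed. The markers of the labelled cell type differed widely between the groups. All 12 adipocyte markers analysed were lower in MICT1 KO cells, with a median log2 fold change of -3.96, and their summed signal was 132315 to 158019 in Scr and 15131.8 to 21793.3 in KO libraries. Ucp1, the uncoupling protein that defines brown adipocytes, was low in both, at 20.8, 24.1 and 30.5 in Scr and 1.91, 1.05 and 9.33 in KO libraries. Of the other brown adipocyte markers in the table, 3 of 8 in all, Cox7a1, a respiratory chain subunit, had 97.9, 91.8 and 123 in Scr and 123, 113 and 166 in KO libraries and was not called (log2 fold change 0.35, SE 0.20). Ppargc1a, a coactivator of thermogenic genes, was below the filter at 8.90, 5.56 and 2.04 in Scr and 5.72, 15.8 and 1.04 in KO libraries. The summed signal of these 3 was 121 to 156 in Scr and 130 to 176 in KO libraries. Cox7a1 made up most of this sum, with means of 104 in Scr and 134 in KO libraries. Of the 3, only Ucp1 was called, as lower in KO cells, with means of 25.1 in Scr and 4.10 in KO libraries. Its log2 fold change was -2.71 (SE 0.64, adjusted p = 0.0011 by limma-trend), and -1.82 when 5 was added to each signal. In bulk RNA, fewer adipocytes and less RNA per adipocyte cannot be told apart, and the part of this difference in the results that follow was not tested.

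Adrb1, the beta-1 adrenergic receptor (chr19:56722117-56725150, plus strand), had signals of 20.8, 32.4 and 19.3 in Scr and 14.3, 19.0 and 18.7 in KO libraries. Every KO value was below every Scr value, but the highest KO and the lowest Scr value nearly met (19.0 and 19.3), and Scr 2 stood above the rest. Its log2 fold change was -0.43 (SE 0.41, 95% interval -1.28 to 0.41, adjusted p = 0.378), an interval that holds both no change and a fall of more than 2-fold.

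As RPKM (the signal scaled to exon length and library total), the level of Adrb1 was 0.436 ± 0.124 in Scr and 0.314 ± 0.0490 in KO cells (SD, n = 3). The alpha-1 receptor genes Adra1b and Adra1d were not called, with log2 fold changes of -0.17 (SE 0.23) and 0.03 (SE 0.53).

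The accessory protein gene Mrap (chr16:90738207-90749785, plus strand) showed the largest change of the 8. Its signal was 703, 837 and 1123 in Scr and 7.63, 2.11 and 2.07 in KO libraries, so that a gene expressed in every Scr library was close to its detection limit in every KO library. The log2 fold change was -7.65 (SE 0.33, adjusted p = 4.73e-14), which ranked Mrap number 2 by the size of the fall among the 12507 genes tested, all with reads in every library. Counted as estimated reads, it had 2718 in the Scr and 12 in the KO libraries, and the ratio of the 2 sums per depth was 218, with a 95% interval of 125 to 423 that covers counting error only. Because the KO values are near 0, the fitted change depends on the pseudocount and was -6.67 with a pseudocount of 5. In RPKM the level went from 34.3 ± 8.14 to 0.152 ± 0.123 (SD, n = 3).

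Adipoq, which encodes adiponectin, and Gpd1, which encodes glycerol-3-phosphate dehydrogenase, were the genes outside the list whose profile over the 6 libraries was most like that of Mrap. By the root mean square difference of log2 signals, each centred on its Scr mean, they lay 0.81 and 0.96 from it, and their log2 fold changes were -6.66 and -6.47 (-5.93 for Adipoq with a pseudocount of 5). Adipoq is also 1 of the 12 adipocyte markers above.

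Gnas, the gene of Gs alpha (chr2:174284320-174346744, plus strand), was the most abundant of the 8 and rose modestly. Its signal was 13898, 14486 and 13896 in Scr and 20133, 17783 and 17635 in KO libraries, and the groups did not overlap. The mean was 1.31-fold higher in KO cells and the log2 fold change was 0.39 (SE 0.057, 95% interval 0.27 to 0.51, adjusted p = 6.09e-06). The level was 77.0 ± 1.08 RPKM in Scr and 101 ± 7.02 in KO cells (SD, n = 3). This locus is imprinted and holds several alternative first exons, among them those of the Nesp and XLas products, and the table gives 1 value for all of them. RPKM was computed over all 11186 bases of exon, so a transcript that uses only part of them is understated, and the antisense gene Nespas lies across the locus.

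The inhibitory alpha subunits, which oppose Gs at several cyclases, were compared as a pathway list. Gnai2 rose from signals of 2945, 2982 and 2965 to 4839, 4433 and 4491, with a log2 fold change of 0.63 (SE 0.055, adjusted p = 3.95e-09). Gnai3 was not called, at a log2 fold change of 0.08 (SE 0.055, adjusted p = 0.234). The RPKM ratio of Gnas to the sum of Gnai2 and Gnai3 was 0.656 ± 0.0135 in Scr and 0.685 ± 0.0181 in KO cells (SD, n = 3; exact permutation test, two-sided p = 0.1, the smallest that 3 against 3 libraries allow). The Gnas and Gnai2 transcripts were thus both higher in KO cells, and the ratio differed by less than either of them. Gnas was scaled to 11186 bases of exon, which include its alternative first exons, and Gnai2 and Gnai3 to 3779 and 3262. The ratio can therefore be compared between the groups, but its size does not show whether Gs alpha transcripts were fewer than the inhibitory ones. Gnal, the alpha subunit of the olfactory Gs-like protein, was near its detection limit at 26.9, 19.5 and 9.003 in Scr and 9.13, 15.0 and 33.7 in KO libraries (log2 fold change -0.01, SE 0.52).

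**Figure D2:**
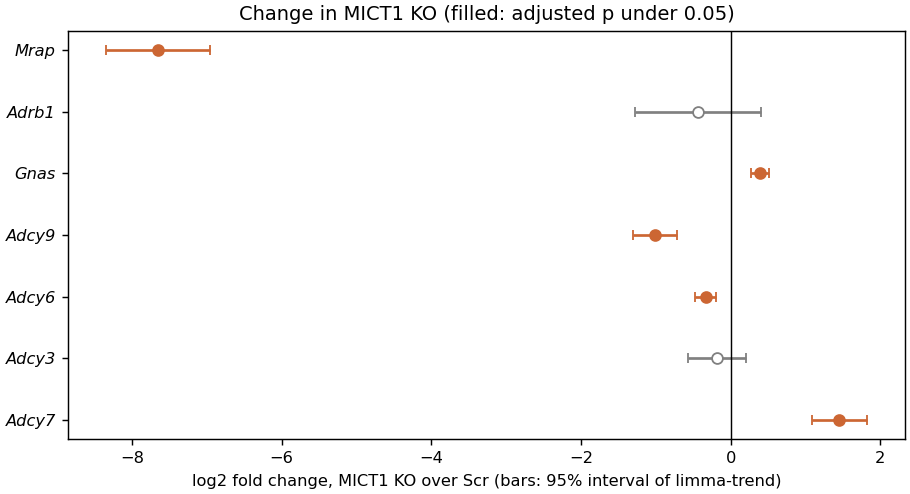
Log2 fold change of MICT1 KO over Scr (horizontal axis) for the 7 tested genes, with 95% intervals of limma-trend, filled points having an adjusted p under 0.05. Mrap lies at -7.65, Adcy9 and Adcy6 lie below 0, Gnas and Adcy7 lie above it, and the intervals of Adrb1 and Adcy3 span 0.

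Among the cyclases, Adcy6 (chr15:98589978-98610287, minus strand) was by far the most abundant and fell by less than Adcy9. It had signals of 1947, 1897 and 1871 in Scr and 1410, 1674 and 1466 in KO libraries, with no overlap and a mean 1.26-fold lower in KO cells. The log2 fold change was -0.33 (SE 0.069, 95% interval -0.48 to -0.19, adjusted p = 0.000330). Its close relative Adcy5 (chr16:35154494-35305743, plus strand) was barely detected, at 9.89, 6.49 and 12.2 in Scr and 3.81, 5.27 and 5.18 in KO libraries. The KO values were the lower ones, but without the filter the log2 fold change of -0.84 (SE 0.56) had an adjusted p of 0.220.

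Adcy9 (chr16:4284886-4437236, minus strand) was reduced 2.01-fold. The signals were 345, 313 and 289 in Scr and 163, 133 and 175 in KO libraries, the lowest Scr value being well above the highest KO value. The log2 fold change was -1.01 (SE 0.14, 95% interval -1.31 to -0.71, adjusted p = 4.36e-06). The nearest profiles were those of Septin9 (root mean square difference 0.075), Sparcl1 (0.081) and Mgat4b (0.092), whose log2 fold changes were -1.02, -1.04 and -1.04. By the size of its fall Adcy9 ranked 751 of the 12507 genes tested.

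Adcy7 (chr8:88272190-88329965, plus strand) moved the other way. It had signals of 109, 127 and 91.6 in Scr and 242, 379 and 286 in KO libraries, and KO 2 was the highest. The mean was 2.77-fold higher in KO cells, and the log2 fold change was 1.45 (SE 0.18, 95% interval 1.08 to 1.82, adjusted p = 5.09e-07). The nearest profiles were those of Ptprn (root mean square difference 0.10), Bdkrb2 (0.12) and Psd3 (0.12). Adcy7 is well known in immune cells, so the macrophage markers were set beside it. Of the 10 listed, 4 were in the table and only Cd14 rose, with a log2 fold change of 1.24 (adjusted p = 2.44e-06), while Csf1r, Cd68 and Mrc1 were not called. The summed signal of the 4 was 267 to 384 in Scr and 516 to 638 in KO libraries, of which Cd14 had means of 192 and 444. The means of Csf1r, Cd68 and Mrc1 were 90.4, 20.2 and 20.9 in Scr and 110, 17.5 and 21.6 in KO libraries. The part of these markers in the rise of Adcy7 was not tested. Adgre1, Ptprc, Itgam, Lyz2, Aif1 and Tyrobp were not analysed here.

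Adcy3 (chr12:4133116-4213525, plus strand), a cyclase also known from olfactory neurons and primary cilia, was the one listed cyclase gene whose groups overlapped. Its signals were 140, 168 and 158 in Scr and 169, 144 and 104 in KO libraries, and the low KO 3 library set the sign of the difference. The log2 fold change was -0.18 (SE 0.18, 95% interval -0.57 to 0.20, adjusted p = 0.414), and it was 0.01 without KO 3. Adcy3 overlaps Cenpo on the opposite strand, and whether the counting used strand is not given in the sources used here. Adcy4 was the remaining cyclase gene in the table and was below the filter, with signals of 1.02 to 7.42 in Scr and 5.18 to 10.5 in KO libraries.

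Levels of different genes can be compared only per length. In Scr cells the order by RPKM was Adcy6 (17.2 ± 0.576), Adcy9 (3.72 ± 0.373), Adcy3 (1.52 ± 0.112), Adcy7 (0.989 ± 0.153), Adcy5 (0.0812 ± 0.0250) and Adcy4 (0.0582 ± 0.0416), all as mean ± SD (n = 3). The values of neighbouring genes in this order did not overlap except for Adcy5 and Adcy4. In KO cells the order was Adcy6 (13.7 ± 1.31), Adcy7 (2.76 ± 0.648), Adcy9 (1.85 ± 0.257), Adcy3 (1.36 ± 0.315), Adcy4 (0.0960 ± 0.0359) and Adcy5 (0.0406 ± 0.00719), in which Adcy9 and Adcy3 overlapped. Adcy7 thus went from below Adcy9 in all Scr libraries to above it in all KO libraries. Their RPKM ratio was 0.243, 0.313 and 0.245 in Scr and 1.147, 2.21 and 1.26 in KO libraries (exact permutation test, two-sided p = 0.1).

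As a share of the summed RPKM of the 6 cyclase genes, Adcy6 went from 73.0% ± 1.05 to 69.2% ± 0.865 (SD, n = 3), a difference of -3.82 percentage points. Adcy9 went from 15.8% ± 0.969 to 9.45% ± 1.95 and Adcy7 from 4.20% ± 0.610 to 13.8% ± 2.07. For these 3 genes and for Adcy5 (0.346% and 0.204%) the groups did not overlap. For Adcy5, however, the lowest Scr share (0.2327%) and the highest KO share (0.2322%) nearly met. For each of these genes the exact permutation test gave the smallest p it can (two-sided p = 0.1, 6 genes compared), so none passes 0.05. The shares of Adcy3 were 6.47% and 6.91% (p = 0.9, exact permutation test), and those of Adcy4 0.245% and 0.492% (p = 0.3, exact permutation test). The summed level itself was 23.5 ± 0.906 RPKM in Scr and 19.8 ± 1.70 in KO cells (p = 0.1, exact permutation test), and Adcy6 remained the main cyclase transcript in every library. By the minimum of the study's methods, a maximum of at least 4 RPKM, only 4 of the 8 genes (Mrap, Gnas, Adcy6 and Adcy9) would be considered, and Adcy7 would not.

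**Figure D3:**
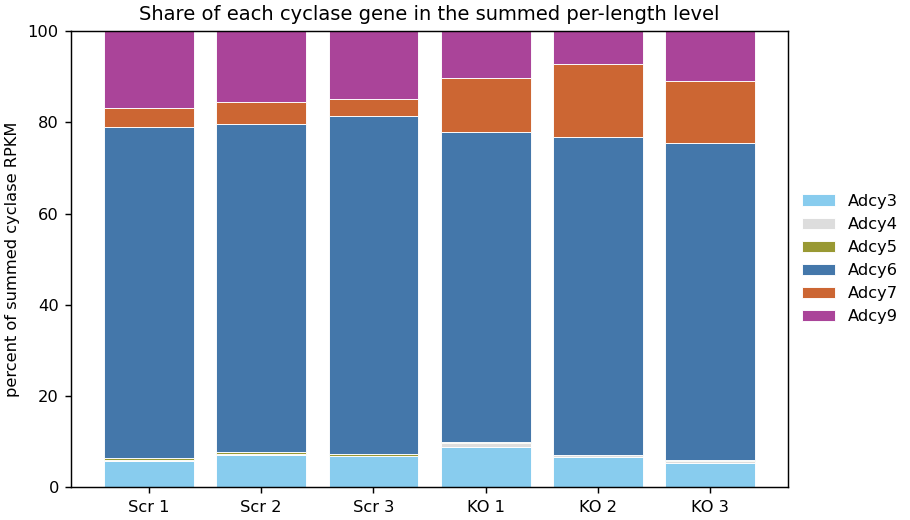
Stacked bars give the percent of the summed cyclase RPKM (vertical axis) held by each Adcy gene in each of the 6 libraries. Adcy6 holds 72.0% to 74.1% in Scr and 68.2% to 69.7% in KO libraries, and the Adcy7 segment is larger than the Adcy9 segment in the 3 KO libraries alone.

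The rest of the pathway was described with 11 lists holding 111 other genes, of which 67 were in the table and 60 were tested. In MICT1 KO cells 14 fell and 29 rose, and 71.7% were called in all. Over all genes tested these shares were 28.3% lower, 28.5% higher and 56.9% in all, against which the counts of each list can be read. Among 9 other Gs-coupled receptors 2 fell and 4 rose, and the median log2 fold change was 0.67 (-0.01 over all genes tested). Tshr, the thyrotropin receptor, fell from signals of 123, 91.8 and 158 to 2.86, 1.05 and 9.33 (log2 fold change -4.81, adjusted p = 3.89e-08). That value became -3.84 when the pseudocount was 5, and -5.44 without KO 3. Adcyap1r1, the receptor for the neuropeptide PACAP, fell from 30.7, 21.3 and 17.3 to 6.67, 14.8 and 6.22 (log2 fold change -1.30, adjusted p = 0.0308), but its adjusted p reached 0.144 when a library was left out. The receptors that rose were Ptgir and Ptger4, for prostaglandins, Gipr, for the incretin GIP, and Vipr1, for the peptide VIP, with log2 fold changes of 1.86, 1.83, 0.84 and 0.77. All 4 were low, with no signal above 168 in any library, and the call of Vipr1 (adjusted p = 0.0459) was lost in several settings.

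Among the 6 Gi-coupled receptors, which lower cAMP, 2 fell and 3 rose. Adora1, the adenosine A1 receptor, went from signals of 68.2, 39.9 and 68.2 in Scr to 0.953, 2.11 and 2.07 in KO libraries (log2 fold change -4.45, adjusted p = 3.06e-07), and Hcar2, a receptor for hydroxybutyrate that restrains lipolysis in adipocytes, from 276, 197 and 274 to 75.3, 120 and 105 (log2 fold change -1.32, adjusted p = 5.04e-06). In contrast, Lpar1 and S1pr1, receptors for lysophosphatidic acid and sphingosine-1-phosphate, had higher signals in all KO libraries, with log2 fold changes of 1.57 and 0.90. Gabbr1 was called higher at 0.47 (adjusted p = 0.0124), which rose to 0.112 when a library was left out. With a pseudocount of 5 the log2 fold change of Adora1 was -3.22. The falls of Mrap, Tshr, Adora1 and Hcar2 were seen beside the fall of all 12 adipocyte markers, and how far they go together was not tested.

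The genes downstream of the receptor and around the cyclases moved in both directions. Of 11 tested G beta and gamma subunit genes 3 fell and 7 rose, led by Gng4 (log2 fold change 3.37, from signals of 0.927 to 4.07 in Scr to 34.2 to 40.0 in KO libraries) and Gng10 (1.09). With a pseudocount of 5 that of Gng4 was 2.41. The falls were those of Gnb5 (-0.81), Gng7 (-0.46, adjusted p = 0.0440) and Gng12 (-0.15, adjusted p = 0.0284), the last pair losing the call when 1 library was left out, with adjusted p up to 0.172 and 0.111. Gnao1, an alpha subunit best known from neurons, rose from 1.02 to 11.9 in Scr to 19.0 to 32.1 in KO libraries (log2 fold change 2.34, adjusted p = 0.00313). That value was 1.63 with a pseudocount of 5, 2.98 without Scr 1 and 1.65 without Scr 3. Ric8b, a chaperone of Gs alpha, rose (0.54, adjusted p = 4.04e-05), and Ric8a, its counterpart for inhibitory subunits, was not called (0.07).

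Of 7 genes for receptor kinases, arrestins and Rgs2, Arrb1 and Rgs2 fell and Grk5 rose. Arrb1, a beta-arrestin that uncouples active receptors, had a log2 fold change of -0.68 (adjusted p = 3.22e-08), while Arrb2 was not called at 0.05. Rgs2, a GTPase-activating protein that also binds cyclases, fell from signals of 808, 835 and 874 to 489, 399 and 441 (log2 fold change -0.92, adjusted p = 2.82e-08). Grk5, which phosphorylates active receptors, rose with a log2 fold change of 1.02 (adjusted p = 1.22e-06). Of the 3 genes tested for other cAMP effectors and export, Bves, which encodes a cAMP-binding membrane protein, and Abcc4, which encodes an exporter of cyclic nucleotides, rose by 1.46 and 0.36, and Ramp3, a receptor accessory protein, rose by 0.27, all on the log2 scale.

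**Figure D4:**
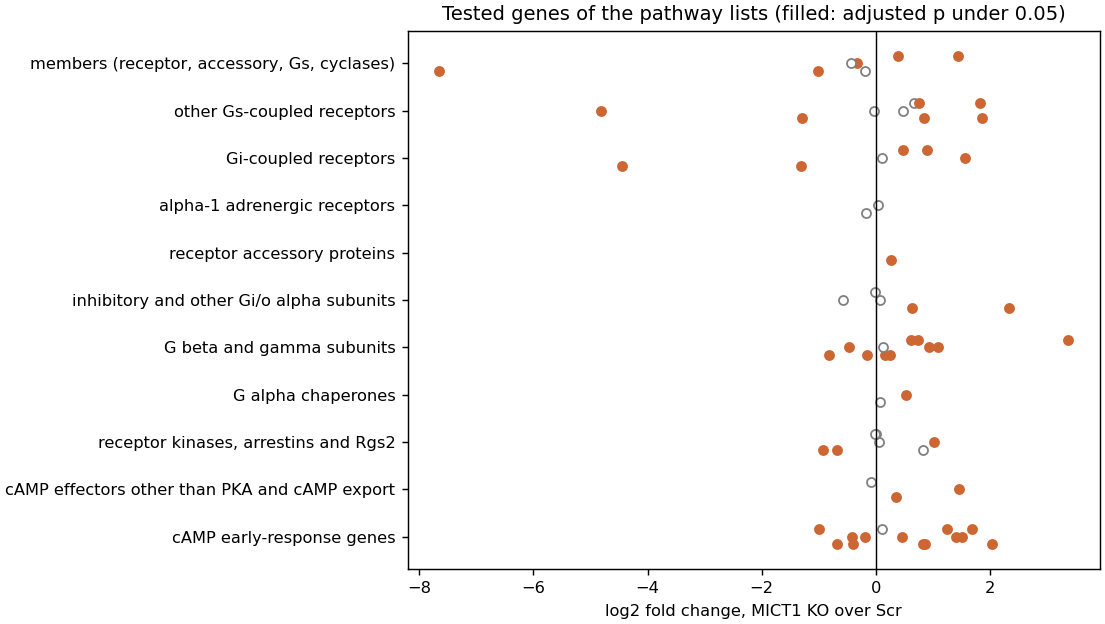
Each point is a tested gene of a pathway list, placed by its log2 fold change of MICT1 KO over Scr (horizontal axis) in the row of its list, with filled points at an adjusted p under 0.05. Mrap, Tshr and Adora1 lie farthest to the left, at -7.65, -4.81 and -4.45, and 5 of the pathway lists, besides the row of members, hold filled points on both sides of 0.

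Genes that respond early to cAMP were the last list, since all cultures were stimulated at the cyclase. Of 14 tested, 8 rose and 5 fell in MICT1 KO cells, with a median log2 fold change of 0.64. Atf3, a stress-responsive transcription factor, had signals of 579, 662 and 292 in Scr and 2239, 1902 and 1798 in KO libraries (log2 fold change 2.03, adjusted p = 5.26e-09), and Nr4a2, an orphan nuclear receptor, rose by 1.69 (adjusted p = 1.14e-07). Pde4d and Pde4b, which encode phosphodiesterases that degrade cAMP, fell by 1.001 and 0.41 on the log2 scale. Fosb, Per1 and Sik1 also fell, with log2 fold changes of -0.67, -0.41 and -0.20. The groups overlapped for Fosb (lowest Scr value 245, highest KO value 263) and for Sik1 (4099 and 4101). The call of Sik1 was lost without Scr 2 (-0.13, adjusted p = 0.108) and without KO 3 (-0.17, adjusted p = 0.0548). Many of these genes also respond to serum and stress, and with a single time after forskolin and no untreated culture the size of the response to forskolin was not measured.

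Markers of other cell types were mixed, in cultures that all came from 1 immortalized BAT cell line. Of 7 tested preadipocyte and fibroblast markers 4 rose and 2 fell. Dcn, which encodes decorin, rose most (log2 fold change 4.75), followed by Ly6a (1.39), Col1a1 (0.77) and Pdgfrb (0.48), while Dlk1, a preadipocyte protein, fell (-3.47) and Pdgfra fell by 0.19 on the log2 scale with overlapping groups (adjusted p = 0.0347, and 0.148 under quantile normalization). Cdh5 alone of 8 endothelial markers was in the table, at 5.93 to 12.1 in Scr and 25.9 to 33.4 in KO libraries. Neither of the muscle markers in the table was called. Their part in the changes of the cyclase and G protein genes was not tested.

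**Figure D5:**
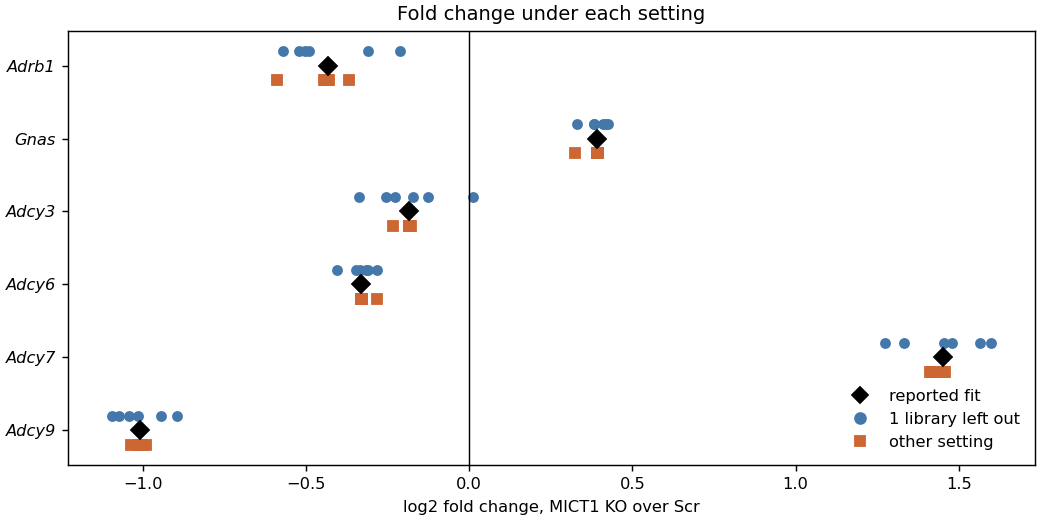
Log2 fold change of MICT1 KO over Scr (horizontal axis) for 6 genes in the reported fit (diamonds), with each library left out in turn (circles) and under the other settings (squares). Gnas, Adcy6, Adcy7 and Adcy9 stay on one side of 0 at every point, and Adcy3 reaches 0.01 when KO 3 is left out.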

How the data were processed

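RNA was sequenced from 3 Scr and 3 MICT1 KO cultures. The study describes stranded total RNA libraries, paired-end reads and alignment to mm10 with Partek, and the submitters' processing notes also name STAR and DESeq2 without a role. The sample labels describe the library preparation differently from the study. The counting model, annotation and strand setting are not given in the sources used here. The authors deposited a normalized signal per gene, read here as estimated reads divided by a size factor (0.949 to 1.08). Of values under 20, 88.7% to 90.2% were whole multiples of a step within a tolerance of 0.01, so the signal is not raw counts. For that reason no count model was used for the reported fit, and limma-voom was run only as an alternative. The table holds no value of 0, so genes without a read in some library were left out of it.

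Log2(signal + 1) was tested with limma-trend (limma 3.58.1, R 4.3.3) on the 12507 genes with a signal of at least 10 in at least 3 libraries, with p adjusted by the Benjamini-Hochberg method over all of them. Fold changes on this scale understate the change of low genes. The fit was tested on simulated data. RPKM used merged exon lengths of GENCODE vM21 (found for 12930 genes) and single values an exact permutation test. Positions and promoters are from RefSeq, GRCm38.p6, and motifs were searched on both strands.

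The members and lists were chosen with earlier results of these data known. Besides the members, Adcy4 and Gnal, the genes named were the 2 largest called changes in each direction of each list and the 3 nearest profiles of members changed at least 2-fold. Other genes were named after their values were seen, where a count was 5 or fewer or as exceptions. A gene of a pathway list, left out of its counts, and one of the nearest profiles are not reported here. Libraries are biological replicates per the study, so p-values cover the spread between these cultures of 1 line. Same-numbered libraries did not deviate together (correlations -0.024, -0.015 and 0.064). Alternatives were library size scaling, quantile normalization, limma-voom, no filter, a maximum of 4 RPKM, pseudocounts of 0.5 and 5, a replicate block, each library left out, and other lengths or genes for the cyclase shares.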

Additional observations from a re-analysis of the deposited data

How the results depend on the processing

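The counts of 3 lower and 2 higher genes held under all alternatives to the limma-trend fit but one. With a maximum of at least 4 RPKM, 1 gene was called higher, since that filter removes Adcy7. In the pathway lists the genes called lower then went from 14 to 9 and those called higher from 29 to 20. Over the alternatives run, the log2 fold change of Mrap was -8.14 to -6.67, of Adcy9 -1.09 to -0.89, of Adcy6 -0.41 to -0.28, of Gnas 0.32 to 0.43 and of Adcy7 1.28 to 1.60. Adcy3, not called, ranged from -0.34 to 0.011 with a library left out and changed sign without KO replicate 3. Gnal, not called, ranged from -0.49 to 0.40 and changed sign in 4 such fits, to 0.31 (Scr replicate 1 out), 0.090 (Scr replicate 2 out), 0.40 (KO replicate 1 out) and 0.069 (KO replicate 2 out). For the other genes named, 563 results over the alternatives were on the same side of the threshold and 32 lost the call, those of Vipr1, Adcyap1r1, Gng7, Gng12, Gabbr1, Sik1 and Pdgfra. The difference in the share of Adcy6 was -4.29 to -3.25 percentage points with a library left out. The replicate numbers did not pair the libraries, and with the replicate number as a block 3 genes were called lower and 2 higher, with 13 lower and 28 higher in the pathway lists. Low signals limit Adrb1, Adcy5, Adcy4 and Gnal, for which a change could not be resolved at this depth.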
